A study of Mus musculus with 6 samples.

Results

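The cells described here are peptidergic dorsal root ganglion neurons of the mouse picked by receptor and transporter transcripts that mark silent-type nociceptors. A cell was a member if it held at least 3 UMIs (unique molecular identifiers, 1 per captured transcript) of Calca, at least 2 UMIs of Chrna3, Slc5a7 and Adra2a together, no UMI of Fgg, fewer than 3 of Mrgprd and Lpar3 together and fewer than 5 of Sst and Nppb together. A cell admitted on Adra2a alone had also to lack Sstr2. Of the 21685 cells in the deposited table, 354 met this rule, and they are called the gated cells. The rule used measured counts of these genes, so their levels are given as a description and support nothing.

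Silent nociceptors are sensory neurons that respond little to mechanical stimuli in healthy tissue and become mechanosensitive in inflammation. In the mouse they are marked by Chrna3, a subunit of the neuronal nicotinic acetylcholine receptor, and they innervate deep tissue and viscera. They are peptidergic: they make Calca, the precursor of the vasodilator peptide CGRP, and they depend on nerve growth factor.

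Neurons came from 6 mice in 3 groups of 1 female and 1 male. The deficient group was Ttpa-/- on a diet without vitamin E (mice 654 and 657, 6 months old), the supplemented group was Ttpa-/- with vitamin E added to the diet (mice 670 and 671, 6 months old), and the wild type group was on the basal diet (mice 698 and 699, 5 months old). The product of Ttpa is a liver protein that loads vitamin E for release into the blood. Ttpa itself was at 0 in the gated cells of every mouse, and over the cells outside the compared sets it gave 4, 5, 1, 4, 0 and 0 UMIs in mice 654, 657, 670, 671, 698 and 699. All 14 UMIs thus lay in libraries labelled Ttpa-/-, and the sources used here do not say which part of the gene was deleted. A 3′ tag outside that part checks nothing, so this gene does not check the genotype labels. Both wild type mice were 5 months old and on the basal diet. In contrasts with wild type, age and diet therefore cannot be told apart from genotype. Each mouse was 1 library, so library cannot be told apart from mouse. Libraries 654 and 670 stood apart by depth: their median UMIs per cell were 2856 and 2499.5, against 3478 to 4959 in the others. Across libraries 261 cell barcodes occurred more than once, 10 members carried such a barcode, and no 2 members shared one.

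Chrna3 lies in a cluster of nicotinic receptor genes on chromosome 9 with Chrna5 and Chrnb4, and Chrnb4, which encodes the beta4 subunit that assembles with alpha3, was not part of the rule. In GENCODE coordinates on GRCm38 the genes follow each other as Chrna5 at chr9:54980880-55007779 on the plus strand, Chrna3 at chr9:55010111-55026562 and Chrnb4 at chr9:55028154-55048779, both on the minus strand. Chrnb4, outside the rule, was found in 97 members. The 250 bases before the start of Chrna3 (chr9:55026563-55026812) are shown because Chrna3 was found in most members. The sequence is RefSeq's on GRCm38.p6, read 5′ to 3′ on the minus strand, with matches to GGGCGG, the core of a GC box, or to its reverse complement in capitals.
Chrna3: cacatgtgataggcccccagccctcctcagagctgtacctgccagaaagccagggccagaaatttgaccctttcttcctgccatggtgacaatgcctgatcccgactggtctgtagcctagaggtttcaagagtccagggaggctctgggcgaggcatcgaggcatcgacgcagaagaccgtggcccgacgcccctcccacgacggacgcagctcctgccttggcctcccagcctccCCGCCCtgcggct
Chrna3 held 1 match, on the opposite strand, where 32.7% of 32851 promoters of this length held the motif on either strand. The sequence did not hold CCAAT (33.8% of promoters, both strands) or TATAAA (12.4%). Its GC content was 63.2%, against a median of 52.4%.

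Members were 38, 69, 28, 71, 78 and 70 of the cells of mice 654, 657, 670, 671, 698 and 699. The corresponding shares of all cells were 0.927%, 2.41%, 0.688%, 1.87%, 2.27% and 2.04%. The Ttpa-/- libraries thus spanned 0.688% to 2.41%, a range that held both wild type values, and the low pair were the shallow libraries. The mean share was 1.48% ± 0.808 (SD, n = 4) in Ttpa-/- mice and 2.15% ± 0.161 (SD, n = 2) in wild type, with p = 0.267 in a two-sided exact permutation test whose smallest possible p was 0.0667. Without mice 654 and 670 the means were 2.14% and 2.15%. With every cell thinned to 2000 UMIs before the rule was applied, and shallower cells left out (1203, 11, 1581, 696, 458 and 115), the shares were 0.725%, 0.667%, 0.362%, 0.874%, 0.838% and 0.693%. These shares rested on 21, 19, 9, 27, 25 and 23 cells, and no interval was computed for them. At equal depth mouse 654 no longer stood below the rest, and mouse 670 did, on 9 cells.

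**Figure D1:**
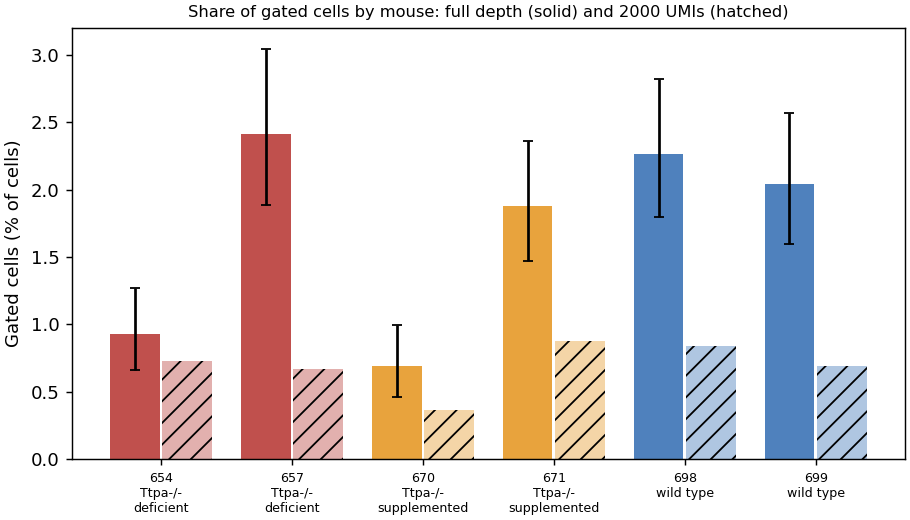
Gated cells as a percentage of all cells of each mouse (y axis), by mouse and group (x axis), at full depth (solid, with exact 95% binomial intervals that cover counting error only) and with each cell thinned to 2000 UMIs (hatched). At full depth the shares run from 0.688% in mouse 670 to 2.41% in mouse 657, and at 2000 UMIs they run from 0.362% to 0.874%.

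Members held more UMIs at the median than other cells, and the part of the rule's UMI minima in this was not tested. The median member held 5097.5 UMIs, against 3601 in the cells outside the 3 peptidergic sets compared here. Per mouse the member medians were 2611, 6868, 3630.5, 5290, 4902 and 6149.5 UMIs. Scrublet called 5 members doublets, and none fell below 500 genes or above 20% mitochondrial UMIs.

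Chrna3 was found in 228 members, Slc5a7, the choline transporter, in 187, and Adra2a, an inhibitory adrenergic receptor, in 108. Chrna3 and Slc5a7 occurred together in 71 members, Chrna3 without Slc5a7 in 157, Slc5a7 without Chrna3 in 116, and 10 entered on Adra2a alone. In cells with 3 or more UMIs of Mrgprd and Lpar3, non-peptidergic neurons that should lack these genes, Chrna3 was present in 0.297%, Slc5a7 in 0.119% and Adra2a in 0.297% of 1685 cells at a median of 7812 UMIs. Members at the threshold, with exactly 2 UMIs of the 3 genes, numbered 210, and 678 cells just outside had 1 UMI. Galanin transcripts (Gal) were present in 50% of the former and 47.9% of the latter, at 486 and 487 CPM (UMIs of the pooled cells scaled to a common total). Among the 144 members with 3 or more UMIs Gal stood at 1480 CPM.

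The label silent-type was checked against markers that the rule did not use, and they were found in part of the members only. Gal, Cartpt, the precursor of CART peptide, and Nos1, the neuronal nitric oxide synthase, are those markers. Together they reached 3 or more UMIs in 174 members (49.2%), 1 or 2 UMIs in 67, and were absent in 113. The 174 were 18 of 38, 40 of 69, 12 of 28, 35 of 71, 33 of 78 and 36 of 70 members of mice 654, 657, 670, 671, 698 and 699. Thinned to one depth of 2464 UMIs, Gal was found in 48.6% of members, Cartpt in 39.2% and Nos1 in 18.8%, against 0.604%, 5.07% and 0.241% of the Mrgprd or Lpar3 cells. Before thinning these shares were 55.6%, 48.6% and 29.7% of members and 1.31%, 12.2% and 0.653% of the Mrgprd or Lpar3 cells. The thinned values left out 35 members and 28 of the other cells. These markers were not limited to the members among peptidergic cells: thinned to the same depth, Gal was found in 72.1%, Cartpt in 22.9% and Nos1 in 4.29% of 140 peptidergic cells with Sstr2, and in 11%, 19.3% and 3.01% of 565 with Fgg (both sets are defined below).

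The 180 members below 3 UMIs of those markers were mixed, and part of them carried other genes. S100a16, which encodes a calcium-binding protein, was found in 77 of the 180 and in 2 of the 174. The other 103 of the 180 lacked S100a16, and 67 of the 180 held 1 or 2 UMIs of the label markers. Smr2 was found in 27 of the 180 and in 5 of the 174, and no member held both S100a16 and Smr2. Cells with S100a16 and few label markers carried 1215 CPM of Thy1, 1523 CPM of S100b, 879 CPM of Nefh (heavy neurofilament) and 398 CPM of Piezo2, the low-threshold mechanotransduction channel. In the 174 members with the label markers the same genes stood at 141, 295, 129 and 88.3 CPM. The order was opposite for Tac1, the precursor of substance P, at 67.2 CPM against 2098 CPM, and for Trpa1, the irritant-sensing channel, at 12.7 CPM against 336 CPM. Fits of the 174 alone, reported below, were added after the counts had been seen. The division was drawn after the counts had been seen too, and its parts were not tested against each other. The gated cells are therefore named by their rule below, and values of the 174 marker-bearing members are set beside the results that the mixture touches.

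**Figure D2:**
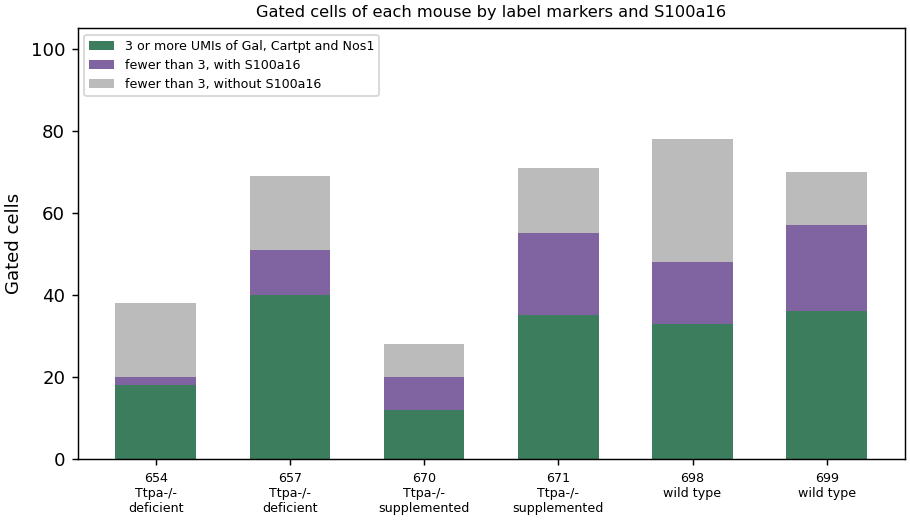
Number of gated cells (y axis) of each mouse (x axis), divided by the summed UMIs of Gal, Cartpt and Nos1 and by S100a16. Marker-bearing members are 12 to 40 per mouse, and members with S100a16 and fewer than 3 marker UMIs range from 2 in mouse 654 to 21 in mouse 699.

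In every mouse the label markers were present among the members. Gal stood at 2277, 836, 689, 949, 770 and 867 CPM in mice 654, 657, 670, 671, 698 and 699, with mouse 654 highest and the others close together. Cartpt stood at 809, 614, 248, 512, 589 and 748 CPM and was lowest in mouse 670. Nos1 stood at 142, 90.9, 184, 157, 135 and 119 CPM, highest in both supplemented mice.

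To see what the members share beyond the rule, their UMIs were summed per mouse and compared with those of 2 other peptidergic sets from the same 6 mice. The first held 717 Calca cells with Fgg and fewer than 2 UMIs of the 3 gate genes, and the second 404 Calca cells with Sstr2 and without Chrna3, Slc5a7 or Fgg. Gate genes and label markers were left out of these tests. With mouse as a block, edgeR's quasi-likelihood test called 1004 genes higher (18.5% of the 5440 tested) and 992 lower (18.2%) than in Fgg cells at an adjusted p under 0.05, which is 36.7% in either direction. At an unadjusted p under 0.05 the share was 44.6%. Against Sstr2 cells it called 596 higher (17.0% of 3509) and 599 lower (17.1%), or 34.1% in either direction and 42.8% unadjusted. Counts called within the gene lists below are to be read against these shares of all genes. Depth differed between the sets (medians of 5097.5, 3418 and 2249 UMIs), and with both sets limited to cells between 2465 and 9835 UMIs the calls were 861 higher and 940 lower, and 276 higher and 291 lower. With sums thinned to the smallest one they were 316 and 342, and 321 and 313. Of the genes called higher against Fgg cells 46.4%, and of those called lower 51.1%, were also called with the 174 marker-bearing members in place of all members. Of these 1004 and 992 genes, 815 and 897 were tested there, and 59 and 27 had the opposite sign. Against Sstr2 cells the shares also called were 56.4% and 62.1%.

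Among acetylcholine receptor genes, Chrnb4 stood at 41.7, 66.7, 73.5, 73.2, 52.9 and 57.4 CPM in the gated cells of mice 654, 657, 670, 671, 698 and 699, and at 0 to 12.8 CPM in Fgg cells and 0 to 9.80 CPM in Sstr2 cells. The gated cells were above both other sets in all 6 mice. The difference from Fgg cells was 3.74 ± 0.37 (log2, SE; adjusted p = 3.4e-11), and it was 3.85 with the marker-bearing members alone. Of 17 cholinergic genes on the list 4 could be tested against Fgg cells: Chrnb4, Chrnb3 (0.72) and Ache, acetylcholinesterase (0.86), were higher, and Chrna6 was lower (-1.14). In the marker-bearing members Chrnb3 was higher by 1.68 and Chrna6 differed by -0.31. Chrna5, the neighbour of Chrna3, gave 2 UMIs over all members. The median of the 4 tested genes was 0.79, against -0.01 over all genes tested. The filter on low counts keeps a gene that is high in 1 set only, as Chrnb4 was in the gated cells. This median and the count of higher genes are therefore a description and support nothing about the list. The same filter preceded the counts and medians given below for other lists compared between cell sets. Those are a description too and support nothing about their lists.

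Of the receptors for neurotrophins and GDNF family ligands, Ngfr, the low-affinity p75 neurotrophin receptor, was higher than in both other sets in every mouse. It stood at 1001 to 1497 CPM over the 6 mice in gated cells, 159 to 235 CPM in Fgg cells and 112 to 286 CPM in Sstr2 cells, with no overlap. The log2 differences were 2.54 ± 0.10 and 2.42 ± 0.13 (SE), and those of the marker-bearing members 2.41 and 2.31. Kit was higher than in Fgg cells (1.06 ± 0.12) in 6 of 6 mice. Of 10 tested genes of this list 3 were higher and 6 lower than in Fgg cells, among them Gfra2 (-3.46), the neurturin receptor, Osmr (-2.46), the oncostatin M receptor, and Lifr (-0.81).

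Of the ion channels of chemical and mechanical sensing 5 of 8 tested were higher than in Fgg cells and 0 lower, and against Sstr2 cells 2 of 6 were higher and 1 lower. As with the cholinergic list, these counts describe only the genes that passed the filter. Trpa1 stood at 325, 139, 91.9, 242, 183 and 121 CPM in the gated cells of mice 654, 657, 670, 671, 698 and 699, and at 51.9 to 78.1 CPM in Fgg cells and 0 to 78.4 CPM in Sstr2 cells. Its difference was 1.5 ± 0.16 from Fgg cells and 2.72 ± 0.26 from Sstr2 cells, and 2.45 and 3.62 in the marker-bearing members. Piezo2 went the other way: it was higher over all members (0.77 ± 0.15 against Fgg cells) and differed by -0.31 in the marker-bearing members.

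The potassium channel gene Kcnk2 (TREK-1) was higher than in Fgg cells by 2.3 ± 0.19 and lower than in Sstr2 cells (-0.51 ± 0.17). In the marker-bearing members the first difference was 3.21 and the second turned to 0.38 (adjusted p = 0.11), and they held 209 CPM against 35.4 CPM in the other members. Of 12 potassium channel genes tested, 5 were higher than in Fgg cells and 2 lower, Kcnip4 (-1.27) and Kcnt1 (-1.40). Of 6 sodium channel genes 3 were higher, including the beta subunit gene Scn2b (3.15), and Scn11a (Nav1.9) was lower (-1.35). Scn2b gave 234 UMIs in gated cells and 3 in Sstr2 cells.

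Peptide precursors moved in both directions. Calcb, the second CGRP gene, was higher than in Fgg cells (0.32 ± 0.09) and Sstr2 cells (1.35 ± 0.11). Tac1 was lower than in both (-0.99 ± 0.09 and -1.06 ± 0.10) in 6 of 6 mice, and Tac1 in the marker-bearing members differed by -0.31 and -0.39. Adcyap1, the precursor of PACAP, was lower than in Sstr2 cells (-1.18 ± 0.11), and differed by -0.46 in the marker-bearing members. Among processing genes Pam, which amidates peptides, was higher than in Fgg cells (0.82 ± 0.12) and by 1.51 in the marker-bearing members, and it differed by 0.02 ± 0.12 from Sstr2 cells, or by 0.70 (adjusted p = 6.5e-06) in the marker-bearing members.

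Among other receptors 8 of 13 tested were higher than in Fgg cells and 3 lower. Htr3a, the subunit of the serotonin-gated channel, stood at 156 to 220 CPM in gated cells and 2.57 to 19.0 CPM in Fgg cells (3.82 ± 0.20), and both marker-bearing members (141 CPM) and the others (233 CPM) carried it. Cnr1, the cannabinoid receptor, was higher by 1.43 ± 0.16 and by 2.25 in the marker-bearing members. Htr1b was higher by 1.69 ± 0.18. Npy1r was lower than in Fgg cells (-1.56 ± 0.27) and Sstr2 cells (-3.19 ± 0.25).

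Transcription factors of the sensory lineage were divided. Pou4f3 was higher than in Fgg cells (2.65 ± 0.22, and 2.3 in the marker-bearing members) and lower than in Sstr2 cells (-0.63 ± 0.19). Runx1, which acts in non-peptidergic and C-fibre lineages, was lower than in Fgg cells (-2.14 ± 0.15) and Sstr2 cells (-3.10 ± 0.16), at 31.9 to 83.4 CPM in gated cells, 181 to 264 CPM in Fgg cells and 322 to 500 CPM in Sstr2 cells. Tlx3 was lower than in both (-1.27 and -1.35). In all 4 were called higher and 5 lower of 15 tested against Fgg cells, and 1 and 6 of 13 against Sstr2 cells.

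**Figure D3:**
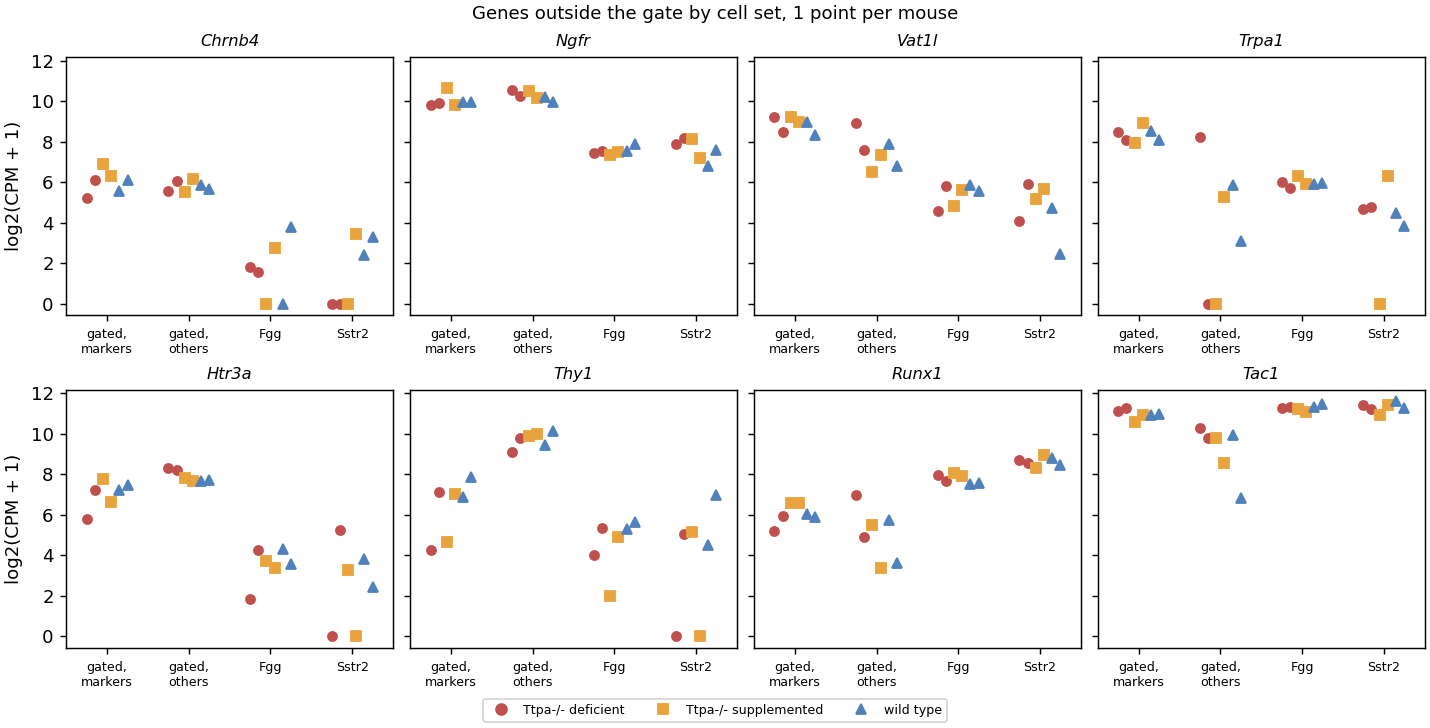
Level, as log2(CPM + 1) on the y axis, of genes outside the rule in 4 cell sets: gated cells with 3 or more marker UMIs, the other gated cells, Fgg cells and Sstr2 cells. Each point is the sum over 1 mouse. Chrnb4, Ngfr and Htr3a were above both other sets in both kinds of gated cells, while Trpa1 was high in the marker-bearing kind (in mouse 654 in both kinds) and Thy1 in the other.

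The genes with the largest folds came partly from one kind of member. Against Fgg cells Thy1 (4.03 ± 0.16), S100b (3.50 ± 0.13), Hopx (3.26 ± 0.14) and Fxyd7 (3.13 ± 0.14) were higher in 6 of 6 mice, and in the marker-bearing members these differences were 1.92, 2.12, 0.92 and 1.34. Ly6h (4.41), S100a16 (4.40), Trappc3l (4.39), Prkcb (3.41) and Cntn1 (3.20) were also higher over all members and did not pass the filter on low counts with the marker-bearing ones. Against Sstr2 cells Pak3 (3.58), Paqr9 (3.53), Spock3 (3.41), Sv2b (3.34), Adam11 (3.19) and Diaph3 (3.06) led with genes named above. Vat1l was higher there by 3.31 ± 0.23 and reached 431 CPM in the marker-bearing members against 187 CPM in the others.

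The genes lowest against Fgg cells were low in both kinds of member. Ctxn3 (-5.30 ± 0.26), Synpr (-4.73 ± 0.19), Crip1 (-3.64 ± 0.15), Pdlim2 (-3.65) and Lxn (-3.06 ± 0.14) were lower in 6 of 6 mice, and their differences in the marker-bearing members were -5.64, -4.13, -3.51, -3.73 and -2.97. Tmem45b (-5.87), Plxnc1 (-3.43), Ppp1r1a (-3.36), Paqr5 (-3.21), Acpp (-2.91), Ifi27l2a (-2.89) and Gna14 (-2.77) completed the list. Against Sstr2 cells Ptprt gave 4 UMIs in gated cells against 266 (-6.79). Pcp4 (-3.28 ± 0.13), Bdnf (-2.55 ± 0.15), Thsd7a (-2.60), Marcksl1 (-2.5), Litaf (-2.28) and Zcchc12 (-2.24) were lower as well.

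Many immediate early genes and genes of inflammation and interferon responses were lower in the gated cells. Of 13 immediate early genes tested against Fgg cells 0 were higher and 7 lower, with a median of -0.45, and against Sstr2 cells 11 of 11 were lower with a median of -1.13. Jun stood at 64.3 to 167 CPM in gated cells, 235 to 287 CPM in Fgg cells and 552 to 783 CPM in Sstr2 cells. Atf3 was lower as well (-1.59 ± 0.21 and -2.32 ± 0.23). Gap43, on the list of axon injury genes with Jun and Atf3, was higher than in both sets, with values below. Of the inflammation and interferon genes 6 of 8 and 6 of 6 were lower, among them H2-D1 (-1.35 and -1.78). Malat1, a nuclear RNA, moved with these groups: it stood at 2133 to 4878 CPM in gated cells, 7892 to 17940.3 CPM in Fgg cells and 12453 to 29703 CPM in Sstr2 cells. The mitochondrially encoded genes were also lower than in Sstr2 cells, 11 of 11 tested with a median of -0.93. Against Fgg cells 3 of 13 were lower, where 18.2% of all genes tested were lower. Depth, Malat1 and mitochondrial transcripts moved with the gene groups here, and their part in the results was not tested.

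Of the neurofilament and peripherin list 6 of 9 genes were higher and 2 lower against Fgg cells, and 7 of 8 higher and 1 lower against Sstr2 cells. Nefl, the light chain, was higher by 0.74 ± 0.08 and 0.80 ± 0.10, and by 0.48 and 0.53 in the marker-bearing members. Nefh was higher by 2.27 ± 0.12 and 1.71 ± 0.16, but by 0.56 and -0.04 in the marker-bearing members. Prph, peripherin of small neurons, was lower (-0.72 ± 0.07 and -0.47 ± 0.09). In the marker-bearing members Prph differed from Sstr2 cells by -0.21 and was not called (edgeR adjusted p = 0.083). Gap43, a growth cone protein, was higher by 0.97 ± 0.08 and 0.81 ± 0.09, and by 0.98 and 0.82 in the marker-bearing members. Synaptic vesicle genes were higher in 13 of 22 and lower in 6 against Fgg cells. Among them Cplx2, complexin 2, stood at 28.7 CPM in marker-bearing members and 416 CPM in the others, while Syp, synaptophysin, was higher by 2.19 ± 0.15, and by 1.95 in the marker-bearing members.

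Genes of vitamin E handling and redox defence showed no common direction. Against Fgg cells 4 of 25 antioxidant genes were higher, including Gstm1 (1.31) and Gclm (0.81), and 8 lower, including Txn1 (-1.41), Mt1 (-1.05) and Gpx3 (-1.01). Gpx3 differed by -0.07 in the marker-bearing members. Abca1, a lipid exporter, was lower (-1.69 ± 0.26). Of the cholesterol synthesis genes 8 of 23 were higher and 1, Fdps, lower (-0.55 ± 0.12). Over all genes tested against Fgg cells 18.5% were higher and 18.2% lower, or 36.7% in either direction.

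The 10 members admitted on Adra2a alone were compared with the remaining members in the 5 mice that held any. The test called 16 genes higher in cells with Chrna3 or Slc5a7 (1.38% of 1160) and 4 lower (0.345%), 1.72% in either direction. Fxyd7 (1.73 ± 0.37), S100b (2.01 ± 0.48) Ppia (1.37 ± 0.29), Arf5 (2.27 ± 0.55), Tuba1b (1.87 ± 0.46), Uchl1 (1.20 ± 0.31) and Fam126b were higher, and Gpx3 (-1.70 ± 0.44), Malat1 (-1.17 ± 0.29) and Psmb10 (-1.96 ± 0.48) lower. DESeq2 called 9 genes, and no gene was called without mouse 699 or with thinned sums.

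No gene was called between the groups of mice within the gated cells. Of 5960 genes tested, edgeR called 0 (0.0%) in each of 4 contrasts at an adjusted p under 0.05: deficient minus wild type, supplemented minus wild type, deficient minus supplemented, and both Ttpa-/- groups minus wild type. At an unadjusted p under 0.05 there were 225, 187, 248 and 201 genes (3.78%, 3.14%, 4.16% and 3.37%). DESeq2 and limma-voom called 0 in all 4. Each sum held 108859 to 495014 UMIs, with a biological coefficient of variation of 14.8% and 3 residual degrees of freedom. The first 2 contrasts share the wild type mice.

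The genes with the smallest p are given as not passing. Wdfy1, an endosomal adaptor of Toll-like receptor signalling, stood at 58.4 and 97.0 CPM in the deficient mice, 45.9 and 53.0 CPM in the supplemented mice and 12 and 27.6 CPM in wild type. All 4 Ttpa-/- mice were above both wild type mice. Of all genes tested, 9.92% had no overlap in either direction between these 4 and 2 mice, 30.5% between deficient and wild type, 30.5% between supplemented and wild type and 34.0% between deficient and supplemented. The difference was 2.06 ± 0.41 for deficient minus wild type (log2, SE; adjusted p = 0.111) and 1.67 ± 0.39 for both Ttpa-/- groups (adjusted p = 0.575). The first passed without mouse 654 (adjusted p = 0.0007), 670, 671 or 699, and did not without 657 or 698 (adjusted p = 0.875 and 0.113). Pam stood at 1001 and 980 CPM in deficient, 845 and 866 CPM in supplemented and 599 and 434 CPM in wild type mice, again with no overlap (0.92 ± 0.22, adjusted p = 0.494; 0.81 ± 0.19, adjusted p = 0.575). Pam passed in both contrasts without mouse 698 (adjusted p = 0.00496 and 0.0099) and with thinned sums (adjusted p = 0.0448 and 0.029). Fuca2 (1.82 ± 0.48), Ubl7 (1.88 ± 0.49) and Cbx3 (0.84 ± 0.23) followed for both Ttpa-/- groups.

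Lower in the deficient mice, and not passing, were Fgf12 (-1.07 ± 0.27), D930028M14Rik (-2.04 ± 0.52) and Ust (-2.29 ± 0.57). Fgf12, a sodium channel modulator, stood at 125 and 307 CPM in deficient, 524 and 396 CPM in supplemented and 452 and 555 CPM in wild type mice. Fgf12 passed without mouse 657 (adjusted p = 0.00635) or 698 (adjusted p = 0.0161) and with thinned sums (adjusted p = 0.00337). Members with S100a16 were 2 of 38, 11 of 69, 8 of 28, 20 of 71, 15 of 78 and 23 of 70 in mice 654, 657, 670, 671, 698 and 699, with the lowest shares in the deficient mice. Fgf12, Cplx2 (-1.07 ± 0.29, deficient minus supplemented) and Onecut2 (-1.29 ± 0.37) did not pass the filter on low counts in the marker-bearing members, and the part of this makeup in their differences was not tested. Efr3b (-1.37) and Angptl6 (-2.11) were also lower-valued in deficient minus supplemented, without passing. Within the marker-bearing members alone edgeR called 2 genes lower in deficient than in wild type mice, Hopx (-2.30 ± 0.44) and Fabp7 (-2.25 ± 0.48). It also called Apoe lower in deficient than in supplemented mice (-1.76 ± 0.40, adjusted p = 0.0435) and Hopx lower in both Ttpa-/- groups than in wild type (-1.74 ± 0.34, adjusted p = 0.00158).

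In the supplemented mice the mitochondrial genes mt-Atp6, mt-Cytb, mt-Co3 and mt-Co1 had the smallest p. Mt-Atp6 stood at 4621 and 7350 CPM in supplemented, 7775 and 8260 CPM in deficient and 12184 and 8096 CPM in wild type mice, and the difference of supplemented minus wild type was -0.78 ± 0.21 (adjusted p = 1). For both Ttpa-/- groups 12 of 12 mitochondrially encoded genes were below wild type, 9 of them at an unadjusted p under 0.05, with a median of -0.55 against -0.02 over all genes. These differences turned on single mice: mt-Atp6 in supplemented minus wild type was -1.04 (adjusted p = 0.00026) without mouse 699, -1.20 (adjusted p = 0.0453) without mouse 671 and -0.49 (adjusted p = 0.997) without mouse 698. For both Ttpa-/- groups mt-Atp6, mt-Co1, mt-Cytb, mt-Co3 and mt-Co2 were called without mouse 699, and no mitochondrially encoded gene was without mouse 698. The median mitochondrial share of members was 2.98%, 3.59%, 1.87%, 3.08%, 4.85% and 3.6% in mice 654, 657, 670, 671, 698 and 699, with mouse 698 highest. Ccl4, a chemokine, gave 4 and 11 UMIs in the supplemented mice, 0 in both deficient mice and 1 and 0 in wild type.

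The gene lists drawn up for vitamin E and redox biology held no call in Ttpa-/- mice. The antioxidant list had 2 of 26 genes at an unadjusted p under 0.05 and a median of 0.03, the vitamin E and lipid transport list 0 of 7 and 0.02, the lipid peroxidation list 0 of 7 and 0.31, and the cholesterol synthesis list 0 of 22 and 0.13. Gpx4, the lipid peroxide reductase, stood at 951, 1034, 1056, 891, 702 and 1156 CPM in mice 654, 657, 670, 671, 698 and 699, with both wild type mice at the ends of the range.

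**Figure D4:**
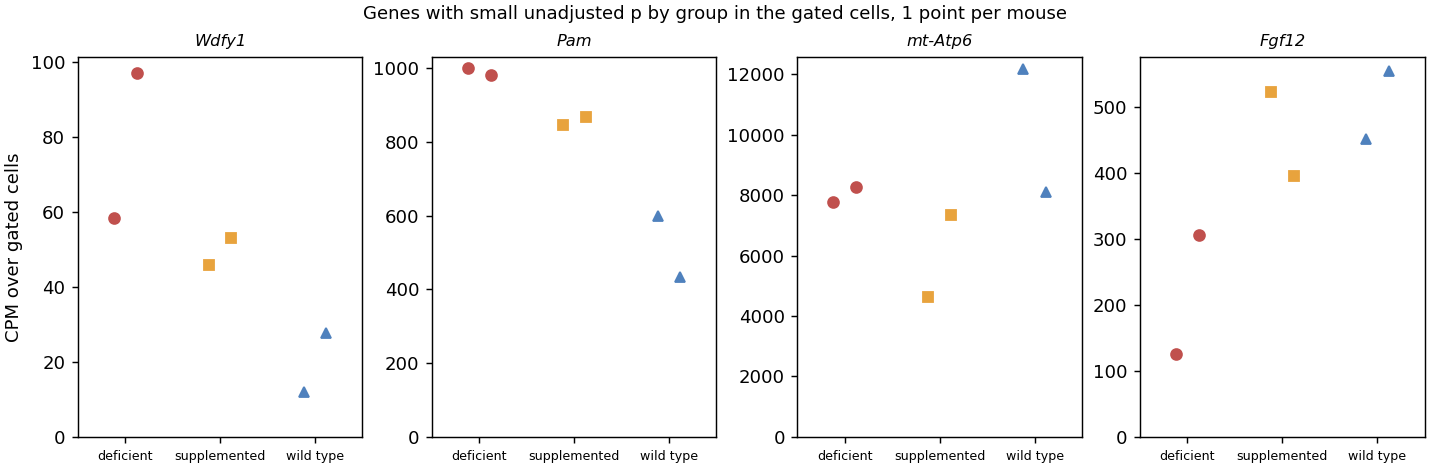
CPM (y axis) of 4 genes over the gated cells, 1 point per mouse by group (x axis). Wdfy1 and Pam are higher in all 4 Ttpa-/- mice than in both wild type mice, mt-Atp6 is lowest in supplemented mouse 670, and Fgf12 is lowest in the deficient mice. None passed the adjusted threshold.

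Genes named in earlier results of these data were followed in the members too. Car8 gave 0, 0, 2, 0, 20 and 8 UMIs in mice 654, 657, 670, 671, 698 and 699, so the counts lay mostly in the wild type mice, but the gene did not pass the filter. Without that filter edgeR called Car8 in deficient minus wild type and in both Ttpa-/- groups minus wild type. With the filter it was called in the first without mouse 671, and in the second without mouse 670, 699 or both 654 and 670. Gm10600 gave 5, 8, 2, 3, 0 and 5 UMIs. The haemoglobin genes Hba-a1, Hbb-bs and Hbb-bt gave 8, 10 and 4 UMIs in mouse 654 and at most 2 in any other mouse, while Hba-a2 gave 7, 4, 1, 2, 3 and 7 UMIs. The erythroid marker list summed to 242 CPM in mouse 654 against 7.57 to 14.9 CPM in the other mice, with Alas2 at 0. Necab1 stood at 95.7 to 292 CPM, Pcp4 at 82.7 to 196 CPM, Calb1 at 0 to 15.1 CPM, Sdc4 at 0 to 8.5 CPM and Ppp1r1a at 7.57 to 18.4 CPM.

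Whether the Ttpa-/- effect differed in the gated cells from that in the Fgg and Sstr2 cells together was tested by an interaction. Of 5700 genes edgeR called 0 higher and 2 lower (0.0351%), with 4.04% at an unadjusted p under 0.05: Apoe, the lipid carrier made by satellite glia, by -1.71 ± 0.24 (adjusted p = 2.64e-05) and Fabp7, a fatty acid binding protein of those glia, by -1.69 ± 0.30 (adjusted p = 0.00204). Apoe stood at 200, 101, 193, 240, 310 and 147 CPM in the gated cells of mice 654, 657, 670, 671, 698 and 699, and at 329, 399, 372, 1003, 288 and 101 CPM in Fgg cells. In Sstr2 cells Apoe stood at 412, 159, 740, 520, 190 and 283 CPM. In the Fgg cells all 4 Ttpa-/- mice were above both wild type mice in Apoe, and in the gated and Sstr2 cells they were not. Of all genes tested between groups in the gated cells, 9.92% separated these 4 and 2 mice. The share in Fgg cells was not counted. Fabp7 stood at 66.7, 50.5, 45.9, 129, 147 and 68.0 CPM in gated cells and at 118, 170, 159, 374, 140 and 42.1 CPM in Fgg cells. The satellite glia and Schwann list summed to 1802, 1970, 2352, 2469, 2544 and 2345 CPM in gated cells and 1288, 1282, 1414, 2284, 1324 and 995 CPM in Fgg cells, with Kcnj10, Ncmap and Mag at 0 in the members. Genes other than Apoe and Fabp7 made up most of this sum in the gated cells of every mouse. Whether those transcripts came from glia or from the neurons was not tested, so the sum is not read as glial content. The part of this list in the interaction result was not tested either. DESeq2 called Apoe only (Fabp7 adjusted p = 0.273). Neither was called with thinned sums or without mouse 698 (adjusted p = 0.173 for both without it) and Fabp7 was not without mouse 699 (adjusted p = 0.223).

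**Figure D5:**
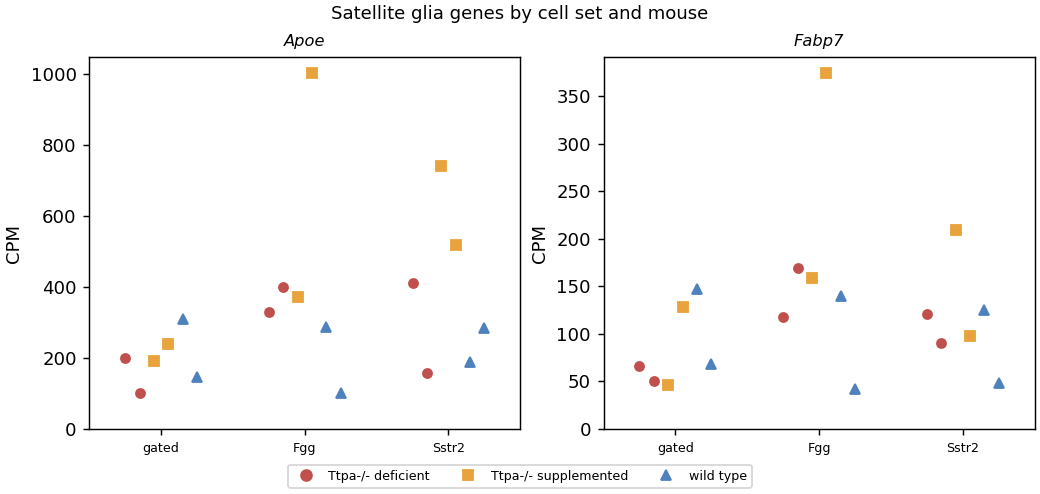
CPM (y axis) of Apoe and Fabp7 in gated, Fgg and Sstr2 cells (x axis), 1 point per mouse. Values in Fgg cells reach 1003 CPM of Apoe in supplemented mouse 671, against 240 CPM in its gated cells.

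Marker lists of other neuron types differed in level. Trpm8 and Penk, of cold-sensing neurons, were at 0 in all members, and the Mrgpra3 itch list summed to 3 UMIs. The Sst and Nppb list summed to 142 to 292 CPM, highest in mouse 654, and the Mrgprd list to 55.3 to 84.2 CPM, both of which hold genes that the rule limited. Myelinated peptidergic markers summed to 1004 to 1376 CPM in gated cells, above the 366 to 475 CPM of Fgg cells and 529 to 731 CPM of Sstr2 cells, with Spp1 and Chodl at 0. Large myelinated neuron markers summed to 1135 to 1598 CPM, above the 543 to 770 CPM of Fgg cells and 362 to 846 CPM of Sstr2 cells, with Colq and Spp1 at 0. These lists moved with the gene differences from both sets, and their part in those was not tested.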

How the data were processed

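Neurons of 6 mice were measured in 3′ v2 droplet libraries, per the labels' protocols. The authors deposited 1 table of raw UMI counts, with 27998 genes, 8608 of them without a count, and 21685 cells. The submitters' processing notes name bcl2fastq 2.17.1.14, Cell Ranger 2.0.1, Seurat 2.3.0, limma 3.32.10 and mm10, and the sources used here do not give how cells were selected. Libraries held 12538785 to 19383933 UMIs. The members, the gene lists and the tests were chosen with earlier results of these data known.

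Members' UMIs were summed per mouse, the replicate. In the group contrasts p-values measure the spread between mice. In the fits with mouse as a block they measure how the difference between cell sets varies from mouse to mouse. Sums were fitted in edgeR 4.0.16 (R 4.3.3) with TMM factors, filterByExpr and the quasi-likelihood F test, and p was adjusted by Benjamini-Hochberg over all genes tested. Group contrasts used all 6 mice in 1 fit; cell sets were compared with mouse as a block. Scrublet (scanpy 1.11.5) marked doublets at 0.8% per 1000 cells; they were removed only in an alternative. Other alternatives were DESeq2 1.42.0, limma-voom (limma 3.58.1), RLE factors, no low-count filter, thinned sums, a stricter gate, sex as a term, a common depth range and leaving out each mouse.

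Between groups, where fewer than 5 genes passed, the 5 of smallest p were named. Between cell sets up to 12 genes per direction were named, by fold, among those past the threshold that had a mean log2 CPM of at least 6 and moved alike in 6 mice. Up to 4 members per list and direction were added by p, with the gate genes, label markers and earlier-named genes always named. The division of members by label markers and S100a16, the fits of the marker-bearing members, and the fits without mice 654 and 670 were added after the data were seen. Results of some genes that this rule names are not reported here. The fits were tested on simulated data.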

Additional observations from a re-analysis of the deposited data

Results flagged for a closer look

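Among the 4 Ttpa-/- mice, 1 mouse lay far from the other 3 in 6 of 29 values checked. Chance marks about 1 in 20 such groups of independent, normally spread values, and these values were not of that kind. The haemoglobin flags all came from mouse 654. Car8 and Calb1 had 0 in the other 3 mice, which sets the flag at any value. No excess over chance is read from the count. Mouse 654 held 66.7 CPM of Hba-a1, 58.4 CPM of Hba-a2, 83.4 CPM of Hbb-bs and 33.4 CPM of Hbb-bt in its members, each far from the values of the other Ttpa-/- mice. Mouse 670 held 18.4 CPM of Car8, from 2 UMIs, and mouse 671 held 15.1 CPM of Calb1, from 6 UMIs, where the other 3 Ttpa-/- mice had 0.

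The Ttpa-/- effect differed between the gated cells and the other peptidergic cells, by the interaction test, for Apoe (-1.71) and Fabp7 (-1.69).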

How the results depend on the processing

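The groups of mice share no replicate numbers; with sex as a term, which sets 1 female and 1 male in each group side by side, 0 genes were called in each of the 4 contrasts. The cell sets were compared within the same mice, and without the mouse as a replicate block the calls were 1802 against Fgg cells, 1043 against Sstr2 cells and 41 between members with and without Chrna3 or Slc5a7 (20 with it).

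Group contrasts, with 0 calls in all 4, gave small counts under some alternatives. Deficient minus wild type gave 2 without the low-count filter, 1 with doublets removed (Wdfy1), 2 with thinned sums, 2 in the marker-bearing members (Hopx and Fabp7) and 2 without mice 654 and 670, and 1 to 11 when 1 mouse was left out. Supplemented minus wild type gave 1 without mice 654 and 670 and 0 to 9 leaving out 1 mouse. Deficient minus supplemented gave 1, 1 and 2 without the filter, in marker-bearing members and without mice 654 and 670, and 0 to 2 leaving out 1 mouse. Without mice 654 and 670 it is 1 mouse against 1 of the other sex, and its calls were Xist and Ddx3y, which differ between the sexes; 1 or the other was also among the calls of each contrast when some single mice were left out. Both Ttpa-/- groups minus wild type gave 1, 2, 1 and 3 without the filter, thinned, in marker-bearing members and without mice 654 and 670, and 1 to 10 leaving out 1 mouse. Share differences reversed for deficient minus wild type without mouse 654 or without both shallow libraries (0.261 points; -1.23 to 0.261 leaving out 1 mouse) and for deficient minus supplemented (-0.354 to 1.13).

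Against Fgg cells (1996 calls) DESeq2 gave 1239, a gate sum of 3 or more 1127, thinning 658 and the marker-bearing members 1213, and leaving out 1 mouse 1663 to 1920. Against Sstr2 cells (1195) DESeq2 gave 711, thinning 634, the depth range 567 and leaving out 1 mouse 883 to 1184. The Adra2a comparison (20) gave 147 without the filter, 9 with DESeq2, 0 thinned, 1 in the depth range and 0 to 29 leaving out 1 mouse. The interaction (2) gave 1 with DESeq2, 4 with a gate sum of 3 or more, 0 thinned and 0 to 3 leaving out 1 mouse.

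Of 127 genes followed against Fgg cells 123 kept their direction in every alternative that tested them, and 95 of 102 did against Sstr2 cells. Of those called, 36 of 125 and 28 of 100 lost the call in at least 1 of them. With the marker-bearing members, against Fgg cells, Piezo2 (-0.31), Sv2c (-0.19), Jak1 (0.076) and Necab1 (0.43) reversed, and against Sstr2 cells Kcnk2 (0.38), Cacnb4 (-0.088), Nefh (-0.043), Fdps (0.027) and Scn7a (-0.36). Necab1 against Fgg cells, not called, was also 0.031 thinned, 0.0062 in the depth range and -0.20 to 0.14 leaving out 1 mouse. Against Sstr2 cells Apoe was 0.057 in the depth range, and Pam, not called, was -0.0027 with Chrna3 or Slc5a7 required, -0.046 without the block, -0.0021 without mice 654 and 670, and -0.13 to 0.26 leaving out 1 mouse. Pcp4 ran from -0.67 to 0.41 for deficient minus wild type and from -0.69 to 0.40 for both Ttpa-/- groups. The causes were not tested. Sums of 119876 and 108859 UMIs in mice 654 and 670 were the smallest behind the group contrasts. With a gate sum of 3 or more the Adra2a comparison could not be fitted.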
